A study of Mus musculus with 24 samples.

Results

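A set of 10 genes of surface epithelium and of the cornified envelope (of 32040 gene symbols in the deposited tables) were followed through supporting cells sorted from fetal gonads of the mouse. They were taken by symbol: 4 keratins of simple epithelia (Krt7, Krt8, Krt18 and Krt19), 3 surface markers of mesothelium (Upk3b, Msln and Lrrn4) and 3 cornified-envelope genes (Sprr2d, Sprr2a2 and Lor). The Sprr2 genes and Lor were selected on their change in count and TPM with stage in these same libraries, so their values are given as a description with no test. The other 7 genes were named as keratins and markers of the coelomic epithelium, and these were tested. They too were chosen with earlier results of these data known.

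Poly(A) RNA was sequenced in bulk from about 40000 sorted cells per library. Pre-granulosa cells of XX embryos came from the Tg(Enh8-mCherry) line and Sertoli cells of XY embryos from the SOX9-IRES-GFP line, each at E11.5 and E12.5 (embryonic days), then at E13.5 and lastly at E15.5. Each of the 8 groups held 3 libraries, and no treatment is described. Sex, mouse line and fluorophore changed together and cannot be told apart, and the labels do not say which cells of the gonad carry either fluorophore. Nothing in the labels says that replicates came from separate litters, so p-values measure only the spread between these samples, which may be technical. In bulk RNA, fewer cells of a type and less RNA per cell cannot be told apart.

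The coelomic epithelium is the mesothelial sheet that covers the early gonad, and cells that leave it inward are a source of the supporting cells. It is built on the simple-epithelial keratins, in which a type II chain (Krt7 or Krt8) pairs with a type I chain (Krt18 or Krt19) to form a filament. The cornified envelope is the cross-linked protein shell of skin cells: loricrin (Lor) is its bulk protein, small proline-rich proteins such as the Sprr2 family act as cross-bridges, and transglutaminases join them. Sprr2 genes are also known outside skin, for example in the uterus.

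On the mouse assembly GRCm38.p6, Sprr2d (chr3:92339140-92340873, plus strand), Sprr2a2 (chr3:92250647-92257304, plus strand) and Lor (chr3:92080271-92083142, minus strand) are protein-coding genes of one stretch of chromosome 3. Their promoters are shown because the means of all 3 genes were lower at E15.5 than at E11.5 in both sexes, though not step by step. Reads of the Sprr2 copies are also hard to tell apart. Each RefSeq promoter runs 5′ to 3′ on the strand of the gene, from 250 bases before to 50 bases from the annotated start, and capitals mark a TATAAA box or a TGANTCA element, the letters bound by AP-1 factors. The windows are chr3:92338890-92339189 for Sprr2d, chr3:92250397-92250696 for Sprr2a2 and chr3:92083093-92083392 for Lor.
Sprr2d: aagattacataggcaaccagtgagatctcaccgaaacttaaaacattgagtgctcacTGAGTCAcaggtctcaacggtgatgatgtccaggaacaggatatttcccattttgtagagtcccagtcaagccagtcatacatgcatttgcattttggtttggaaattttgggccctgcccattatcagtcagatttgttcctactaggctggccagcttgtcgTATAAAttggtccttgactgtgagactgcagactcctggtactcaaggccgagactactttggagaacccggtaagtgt
Sprr2a2: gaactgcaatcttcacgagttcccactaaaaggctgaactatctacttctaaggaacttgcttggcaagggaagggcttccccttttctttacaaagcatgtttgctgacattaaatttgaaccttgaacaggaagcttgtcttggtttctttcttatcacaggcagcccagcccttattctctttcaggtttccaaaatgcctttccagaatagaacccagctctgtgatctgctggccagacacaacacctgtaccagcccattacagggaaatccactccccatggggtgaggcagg
Lor: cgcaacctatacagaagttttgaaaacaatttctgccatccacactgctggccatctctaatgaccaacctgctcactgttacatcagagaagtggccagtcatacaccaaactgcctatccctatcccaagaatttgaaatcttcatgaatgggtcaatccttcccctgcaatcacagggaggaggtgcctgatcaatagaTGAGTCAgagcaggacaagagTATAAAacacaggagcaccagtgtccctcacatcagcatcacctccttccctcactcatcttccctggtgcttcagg
Counting the start base as 0, TATAAA lay at -29 to -24 in Sprr2d and at -27 to -22 in Lor. A TGAGTCA match to TGANTCA lay at -193 to -187 in Sprr2d and at -48 to -42 in Lor. Searched on both strands, neither run of letters was in the Sprr2a2 window, which is set at the annotated start of the gene. The longest transcripts of Sprr2a2 and Sprr2d have 2867 and 681 bases. Yet in XX E11.5 replicate 1, 342.79 counts gave 46.07 TPM for Sprr2a2, and 1007.89 counts gave 145.58 TPM for Sprr2d. The deposited TPM thus used similar lengths for both, and the counted Sprr2a2 RNA may start outside this window. Of 32851 RefSeq promoters of this length, 13.6% held TATAAA and 7.81% held TGANTCA. The Sprr2a2 window was 100% identical to that of its copy Sprr2a1 and 46.7% identical to that of Sprr2d. The longest GENCODE M21 transcripts of Sprr2a2 and Sprr2a1 shared an identical run of 1392 bases, against 24 bases for Sprr2a2 and Sprr2d, so the division of counts between Sprr2a1 and Sprr2a2 is uncertain.

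The keratin and marker genes lie elsewhere. Krt7 (chr15:101412403-101427806), Krt8 (chr15:101996711-102004342) and Krt18 (chr15:102028216-102032026) are on chromosome 15, and Krt19 (chr11:100140810-100145926) is on chromosome 11. Upk3b is at chr5:136038496-136044993, Lrrn4 at chr2:132866686-132894010 and Msln at chr17:25748613-25754378.

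Total counts per library ranged from 11275251 to 37256881, and levels are given as CPM (counts scaled to the library) on TMM-scaled library sizes. A count of 3, taken as the floor, was worth 0.0774 to 0.26 CPM, a limit that covers counting error only. The pre-granulosa list (Foxl2, Fst, Wnt4, Irx3, Runx1) summed to 153 to 979 TPM in XX libraries and 0.88 to 28.7 TPM in XY libraries, and the Sertoli list (Sox9, Amh, Dhh, Sox10, Ptgds) to 24.5 to 107 and 606 to 7989 TPM. The keratinocyte list (Trp63, Krt5, Krt14, Krt1, Krt10) summed to 21.5 to 67.7 TPM, and of its genes Krt5 was at 0 to 0.148 CPM and Trp63 at 0.0561 to 1.78 CPM in all 24 libraries. Krt10, at 9.18 to 26.0 CPM, was the highest of the list. The sum went from 46.3 to 24.4 TPM in XY between E11.5 and E12.5, with 3 of the 4 tested genes called lower by edgeR (24.8% of all genes were), and all 4 were called higher in XX from E12.5 on (30.5%, 32.8% and 34.9% of all genes were). 3 libraries, each replicate 3 of its group, stood apart and were left out together in an added setting. XX E11.5 replicate 3 had 55785.6 TPM of erythroid RNA (5290 and 23786.5 in the other two) and 252 TPM of immune RNA. Group means of erythroid RNA were 28287, 1475, 759 and 12.7 TPM in XX over the 4 stages, and 20.3 to 38.6 in XY. Those of immune RNA were 169, 40.6, 30.4 and 21.9 TPM in XX, and 0.223 to 0.637 in XY. The other two XX E11.5 libraries also differed. Replicate 1 had the most Epcam of its group (67.3 CPM against 6.97 and 5.57), Cdh1 (41.4 against 0 and 2.07) and Sox9 (225 against 78.5 and 74.5), and replicate 2 the most pre-granulosa RNA (548 TPM against 190 and 153). XX E12.5 replicate 3 was opposite to the other two for many of the 10 genes. XY E11.5 replicate 3 carried Xist, the RNA of the inactive X chromosome, at 40.8 CPM, against 0.272 and 6.32 in replicates 1 and 2 and 71 to 109 in XX E11.5. The Y-linked gene Ddx3y read 176, 122 and 130 CPM in XY E11.5 replicates 1, 2 and 3, and 0 to 0.534 in XX E11.5. XX E13.5 replicate 1 is given as E13.5 by its title and as E12.5 by another label, and was kept at E13.5.

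The sex difference of Krt19, Upk3b and Lrrn4 widened most between E11.5 and E12.5. These genes fell in XY cells within 1 day to under 1.2 CPM, while in XX cells they kept to 5 CPM or more in all 12 libraries. Krt8 and Krt18 rose in XY cells over the same day. All 7 genes passed the filter on low counts. A call was an adjusted p below 0.05 in edgeR's quasi-likelihood test, with Benjamini-Hochberg adjustment over all 16190 genes tested. For XX minus XY, 4 of 7 passed at E11.5, 3 of them with more in XX, where 42.0% of all genes were called (21.4% with more in XX and 20.6% with more in XY). At E12.5, 6 of 7 passed, 5 of them with more in XX, where 62.1% of all genes were called (30.5% with more in XX and 31.5% with more in XY). At E13.5 and at E15.5, 6 of 7 passed, all with more in XX, where 66.1% and 69.4% of all genes were called (32.8% and 34.9% with more in XX). Over the 4 stages this came to 22 of 28 tests, beside 59.9% over all genes, so the share called sets the 7 genes little apart. The median log2 difference of the 7 was 0.80, 4.31, 4.70 and 3.58, where that of all genes lay between -0.01 and 0.05. The median absolute difference of the 7 was 1.03, 4.31, 4.70 and 3.58, against 0.41, 0.65, 0.77 and 0.88 over all genes. At E13.5 and E15.5 both medians of the 7 were the value of Msln, which was close to the limit of detection. From E12.5 on, Krt19, Upk3b and Lrrn4 lay at 4.08 or more, and Krt7, Krt8 and Krt18 between -0.68 and 1.72.

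**Figure D1:**
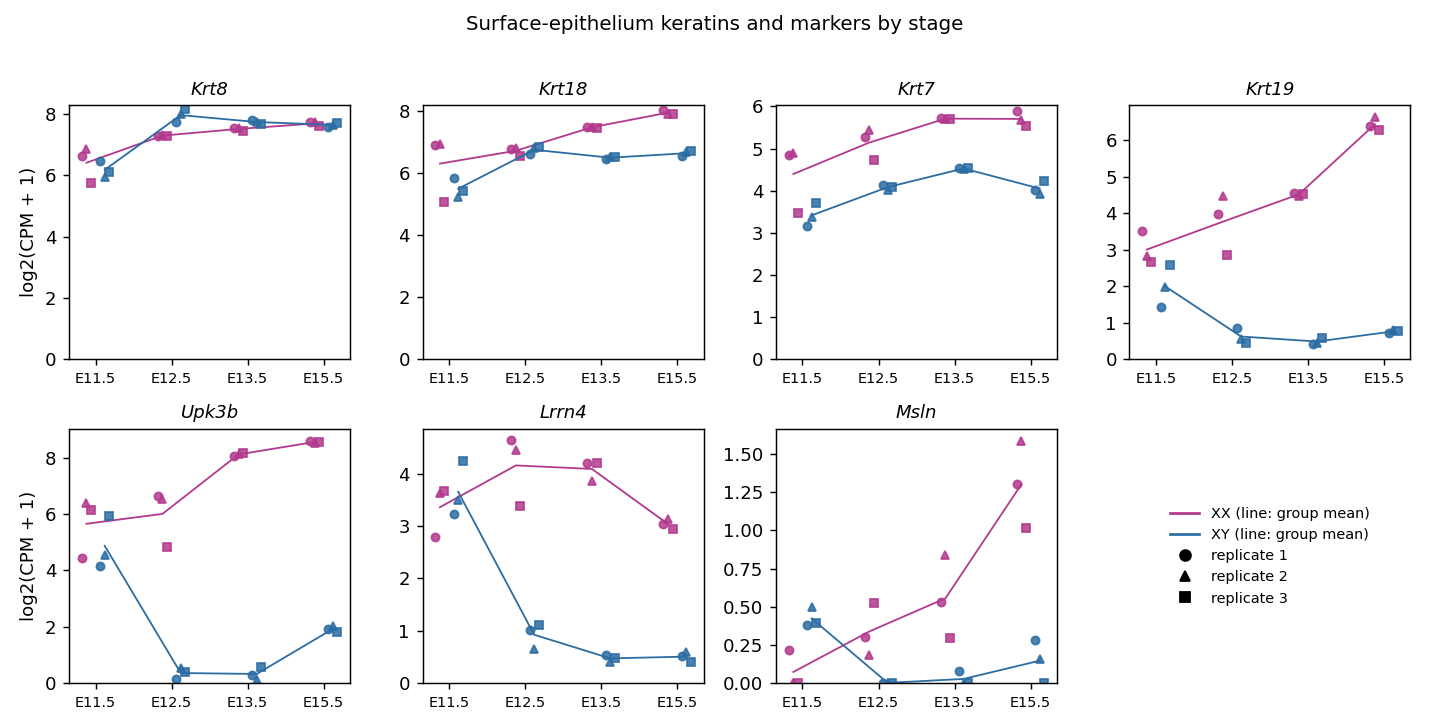
Level of 7 surface-epithelium genes in each library, as log2(CPM + 1) (y axis), by embryonic stage (x axis), with XX in magenta and XY in blue. Symbols are replicates and lines join group means. Krt19, Upk3b and Lrrn4 drop in XY between E11.5 and E12.5, while Krt8 and Krt18 climb.

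Upk3b, which encodes a uroplakin of the mesothelial surface, showed the widest gap of the 7 genes. In XX replicates 1, 2 and 3 it stood at 20.6, 82.8 and 69.2 CPM at E11.5, then 99.2, 91.1 and 27.6, then 265, 278 and 287, and at the last stage 383, 367 and 377. In XY it stood at 16.6, 22.1 and 60.4 CPM at E11.5, then 0.0934, 0.431 and 0.32, then 0.221, 0.0797 and 0.464, and at the last stage 2.73, 3.09 and 2.53. The sexes overlapped at E11.5 and were far apart from E12.5 on. The XX mean was 258-fold the XY mean at E12.5, 1084-fold at E13.5 and 135-fold at E15.5. The E13.5 value was 1839-fold without XY E13.5 replicate 3, as the XY counts there were 4, 2 and 13. In the edgeR fit the log2 difference was 7.96 (SE 0.78, adjusted p = 3.43e-08), 9.99 (SE 0.79, adjusted p = 1.39e-09) and 7.07 (SE 0.63, adjusted p = 6.32e-09). At E11.5 it was 0.80 (SE 0.47, adjusted p = 0.18), which did not pass. That value was called at 1.59 (adjusted p = 0.0123) without XY E11.5 replicate 3, and at 1.19 (adjusted p = 0.0354) without XX E11.5 replicate 1.

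Upk3b fell by 6.83 on the log2 scale (SE 0.78, adjusted p = 4.9e-07, edgeR) in XY between E11.5 and E12.5. The XY E11.5 mean was 33.0 ± 23.8 CPM (SD, n = 3) and 19.4 without replicate 3. In XX the gene rose by 1.93 (SE 0.48, adjusted p = 0.00425, edgeR) from E12.5 to E13.5. The small return in XY from E13.5 to E15.5, 3.36 (SE 0.96, adjusted p = 0.0163, edgeR), rested on counts of 2 to 13 against 40 to 63. It was not called without XY E13.5 replicate 2 (2.89, adjusted p = 0.0718) or by limma on log2(TPM + 1) (0.97, adjusted p = 0.155).

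Krt19, a type I keratin of simple epithelia, had the widest sex difference of the 4 simple-epithelial keratins from E12.5 on. In XX it read 10.5, 6.05 and 5.38 CPM at E11.5, then 14.9, 21.1 and 6.19, then 22.4, 21.2 and 22.1, and at the last stage 82.9, 99.1 and 77.1. In XY it read 1.71, 2.92 and 4.98 CPM at E11.5, then 0.794, 0.474 and 0.365, then 0.332, 0.359 and 0.5, and lastly 0.651, 0.73 and 0.696. No XY library reached an XX library of its stage, and all XY libraries from E12.5 on lay under 1 CPM. The XX mean was 2.28-fold the XY mean at E11.5 and 125-fold at E15.5. XX minus XY on the log2 scale was 1.19 (SE 0.36, adjusted p = 0.0119), 4.68 (SE 0.46, adjusted p = 2.43e-08), 5.74 (SE 0.48, adjusted p = 1.65e-09) and 6.96 (SE 0.47, adjusted p = 5.21e-11) over the 4 stages in edgeR. The E11.5 call was lost without XX E11.5 replicate 1 (0.82, adjusted p = 0.0935) or XY E11.5 replicate 1 (0.87, adjusted p = 0.0696), with only the libraries compared (1.17, adjusted p = 0.122) and by limma on log2(TPM + 0.1) (1.05, adjusted p = 0.0572). In XY, Krt19 fell by 2.55 (SE 0.48, adjusted p = 0.000146, edgeR) from E11.5 to E12.5, and in XX it rose by 1.98 (SE 0.34, adjusted p = 0.000282, edgeR) from E13.5 to E15.5. The earlier XX step, 0.94 (SE 0.35, adjusted p = 0.0416, edgeR), was lost when any of several single libraries was left out and was 0.49 (adjusted p = 0.312) without XX E12.5 replicate 2.

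Lrrn4, a leucine-rich repeat membrane protein used as a mesothelial marker, had another course in XX. It measured 5.87, 11.4 and 11.7 CPM at E11.5, then 23.9, 20.8 and 9.49, then 17.5, 13.53 and 17.4, and at the last stage 7.2, 7.73 and 6.72. In XY it measured 8.39, 10.3 and 17.9 CPM at E11.5, then 1.03, 0.561 and 1.14, then 0.442, 0.319 and 0.393, and lastly 0.434, 0.505 and 0.316. The XX libraries thus peaked at E12.5 to E13.5, and the XY libraries dropped once and stayed low. XX minus XY was -0.34 (SE 0.31, adjusted p = 0.396) at E11.5 and then 4.31, 5.38 and 4.08 (adjusted p = 3.04e-09, 4.08e-10 and 3.34e-08, edgeR). Lrrn4 fell by 3.74 (SE 0.37, adjusted p = 3.91e-08, edgeR) in XY between E11.5 and E12.5. In XX it rose by 0.91 (SE 0.31, adjusted p = 0.0281, edgeR) over that day, a call lost without XX E11.5 replicate 1 (0.65, adjusted p = 0.14), XX E12.5 replicate 1 (0.65, adjusted p = 0.152) or XX E12.5 replicate 2 (0.76, adjusted p = 0.109). From E13.5 to E15.5 it fell by 1.16 in XX (SE 0.32, adjusted p = 0.0105, edgeR), and by 1.11 (adjusted p = 0.0504) without XX E15.5 replicate 3. Upk3b stood at 0.44 over the same step (SE 0.46, adjusted p = 0.52, edgeR).

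Msln, which encodes mesothelin, was close to the limit of detection. XX counts were 3, 0 and 0 at E11.5, then 6, 3 and 10, then 6, 19 and 3, and at the last stage 17, 30 and 23, where the level was 1.5 ± 0.488 CPM (SD, n = 3). XY counts were 11, 16 and 12 at E11.5, 0 in all 3 libraries at E12.5, then 1, 0 and 0, and lastly 5, 2 and 0. XX counts were low first and higher at the last stage, and XY counts the other way round. The XX mean was at least 1.99-fold higher than XY at E12.5, set against a floor of 3 counts per library. Msln was called higher in XX at the 3 later stages, with edgeR adjusted p of 0.0023, 0.000802 and 0.000374. The call of more Msln in XY at E11.5 (adjusted p = 0.0333, edgeR) was lost without XX E11.5 replicate 2 (adjusted p = 0.125) or replicate 3 (0.0958), and without XY E11.5 replicate 2 (0.0732) or replicate 3 (0.0509).

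**Figure D2:**
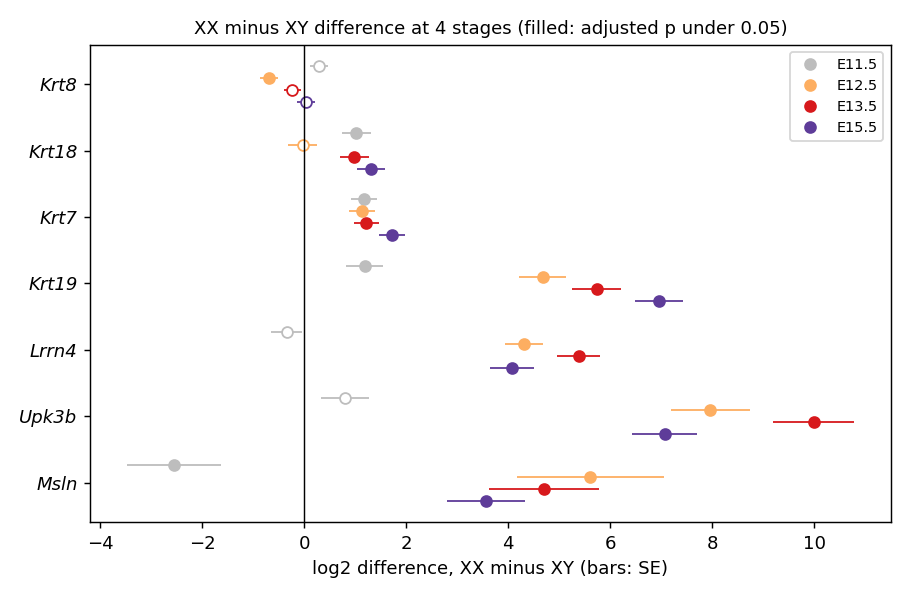
XX minus XY difference (x axis, log2, bars are SE of the edgeR fit) of 7 surface-epithelium genes (rows) at 4 stages (colours), with filled points for an adjusted p under 0.05. Krt19, Lrrn4 and Upk3b lie at 4.08 or more from E12.5 on, while Krt8 stays between -0.68 and 0.29.

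The 2 main filament keratins did not share this loss. Krt8, the type II partner of Krt18, stood at 97.6, 115 and 53.4 CPM in XX and 88.7, 61.4 and 67.5 in XY at E11.5. At E12.5 it stood at 155, 159 and 155 in XX and at 215, 254 and 286 in XY, so all XY libraries were above all XX libraries. From E13.5 to E15.5 it lay between 173 and 212 CPM in XX and between 192 and 225 in XY. Krt8 rose by 1.79 (SE 0.18, adjusted p = 4.73e-08, edgeR) in XY between E11.5 and E12.5, to 3.47-fold the earlier mean, and by 0.82 in XX (SE 0.18, adjusted p = 0.00141, edgeR). The XX step was not called with only the libraries compared (0.79, adjusted p = 0.0934). Its XX minus XY difference was called at E12.5 alone, at -0.68 (SE 0.18, adjusted p = 0.00209, edgeR). At E11.5 it was 0.29 (adjusted p = 0.196), and 0.54 (adjusted p = 0.0021) without XX E11.5 replicate 3. At E13.5 and E15.5 it was -0.23 (SE 0.18) and 0.05 (SE 0.18), with edgeR adjusted p of 0.263 and 0.828. None of the Krt8 counts was a whole number in any library, as in estimates that divide reads among features.

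Krt18, the type I partner of Krt8, rose in XY at the first step and in XX at the second. XX libraries held 118, 121 and 32.5 CPM at E11.5, then 109, 112 and 92.5, then 176, 179 and 174, and at the last stage 259.6, 239.9 and 236. XY libraries held 55.7, 36.1 and 42 CPM at E11.5, then 95.9, 112 and 112, then 86.2, 90.5 and 89.9, and at the last stage 92.9, 100.3 and 102. The sexes overlapped at the first 2 stages and were apart at E13.5 and E15.5. XX minus XY on the log2 scale was 1.03 (SE 0.28, adjusted p = 0.00584), -0.03 (SE 0.28, adjusted p = 0.935), 0.99 (SE 0.28, adjusted p = 0.0039) and 1.32 (SE 0.28, adjusted p = 0.000311) in edgeR. The E11.5 call was lost with only the libraries compared (1.02, adjusted p = 0.169) and by limma on log2(TPM + 0.1) (0.74, adjusted p = 0.0586). Krt18 rose by 1.26 (SE 0.28, adjusted p = 0.00085, edgeR) in XY between E11.5 and E12.5. The XX step from E12.5 to E13.5, 0.76 (adjusted p = 0.0421, edgeR), was lost without any single library of those groups, with adjusted p of 0.0763 to 0.117. Without XX E11.5 replicate 3 the XX E11.5 mean moved from 90.6 to 119.7 CPM.

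Krt7, a type II keratin of glandular and mesothelial cells, was higher in XX at every stage, by 2.2- to 3.29-fold in group means. XX libraries gave 27.6, 28.6 and 10.04 CPM at E11.5, then 37.5, 42.1 and 25.6, then 52.0, 51.1 and 51.1, and at the last stage 58.2, 50.6 and 45.4. XY libraries gave 8.01, 9.29 and 12.03 CPM, then 16.5, 15.2 and 16.1, then 22.2, 21.7 and 22.3, and lastly 15.1, 14.1 and 17.7. Only XX E11.5 replicate 3 fell within the XY range of its stage. The log2 difference was 1.18, 1.14, 1.22 and 1.72 (SE 0.25 to 0.26, adjusted p = 0.000841, 0.00053, 0.000218 and 4.57e-06, edgeR). The E11.5 call was lost with only the libraries compared (1.17, adjusted p = 0.0855). Krt7 rose by 0.66 in XX (adjusted p = 0.044) and by 0.71 in XY (adjusted p = 0.024) from E11.5 to E12.5 in edgeR. The XX step was 0.33 (adjusted p = 0.17) without XX E11.5 replicate 3, and the XY step 0.51 (adjusted p = 0.149) without XY E11.5 replicate 1.

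Over the stage steps, 4, 2 and 2 of the 7 genes were called in XX, where 34.0%, 31.7% and 25.6% of all genes were called. All XX calls were rises but 1, Lrrn4 at the last step, and rises made up 16.7%, 14.2% and 12.8% of all genes. In XY the counts were 7, 0 and 1, against 51.9%, 16.6% and 21.3% of all genes. At the first XY step Krt7, Krt8 and Krt18 rose, and Krt19, Upk3b, Msln and Lrrn4 fell, where 27.1% of all genes rose and 24.8% fell. The median of the 7 at that first step was -2.55, against 0.03 over all genes. The last XY call was a rise of Upk3b. The sex-by-stage interaction, an F test that the XX minus XY difference is equal at all 4 stages, was called for 6 of 7 genes, where 70.1% of all genes were called. Krt7 was the exception (adjusted p = 0.379, edgeR). The count of 6 fell to 4 without XY E12.5 replicate 3. When the 3 libraries that stood apart were left out, a setting chosen after the data were seen, the XX minus XY calls numbered 23 against 22 and the interaction calls 7.

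The paired keratins were compared per transcript length, in TPM. The ratio of Krt8 to Krt18 was 0.786, 1.09, 0.748 and 0.609 in XX over the 4 stages and 1.18, 1.7, 1.74 and 1.47 in XY. As the mean log2 ratio it was 0.76 ± 0.10 in XY and 0.12 ± 0.14 in XX at E12.5, and 0.55 ± 0.03 and -0.71 ± 0.06 at E15.5 (SD, n = 3). Summed TPM of Krt7 and Krt8 over that of Krt18 and Krt19 was 0.913 ± 0.275, 1.15 ± 0.123, 0.845 ± 0.00471 and 0.554 ± 0.0117 in XX. It was 1.23 ± 0.0471, 1.79 ± 0.122, 1.89 ± 0.136 and 1.55 ± 0.0476 in XY. From E12.5 on, all XY libraries were above all XX libraries. At E11.5 XX replicate 3, at 1.22, lay within the XY range. Adding Krt20, a further type I keratin, moved the XX values to 0.764, 0.939, 0.683 and 0.509. The XX fall after E12.5 went with the climb of Krt18 and Krt19, and no test was made of the ratios.

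**Figure D3:**
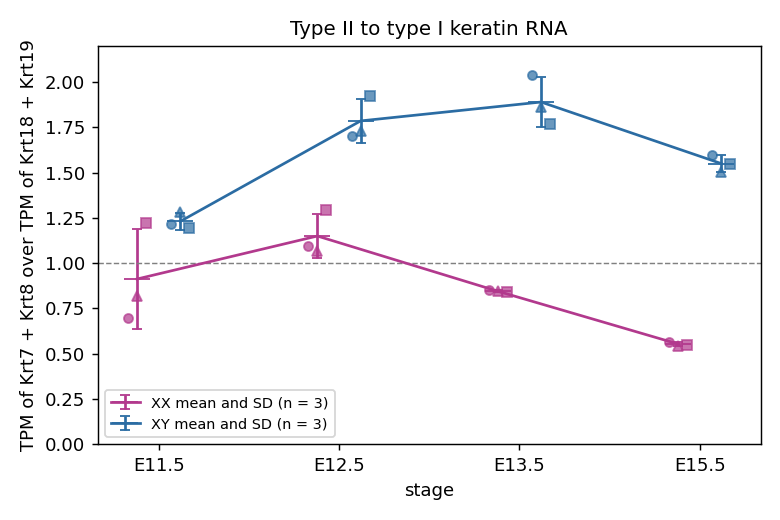
Summed TPM of the type II keratins Krt7 and Krt8 over that of the type I keratins Krt18 and Krt19 (y axis) by stage (x axis). Points are libraries, bars are the mean and SD of 3 libraries, and the dashed line is a ratio of 1. XX falls to 0.554 at E15.5, and XY stays at 1.23 or above.

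Of the other 18 mesothelial and surface-epithelium genes, 17 passed the filter. XX minus XY was called for 6, 13, 13 and 15 of them, with 3, 12, 12 and 11 higher in XX, beside 42.0%, 62.1%, 66.1% and 69.4% of all genes. Their median difference was 0.44, 1.62, 2.41 and 1.28. Between E11.5 and E12.5 in XY, 11 fell and 2 rose, with a median of -2.08, beside 51.9% of all genes called. Upk1b, a second uroplakin, fell by 7.44 at that step (SE 1.08, adjusted p = 8.6e-06, edgeR). It was at 1.6, 2.19 and 6.92 CPM in XY at E11.5 and then at 0, 0.0431 and 0, and in XX at 43.6, 40.3 and 43.9 at E15.5. Cav1, the caveolin of membrane pits, fell by 3.50 in XY and rose by 1.77 in XX at the first step. Bnc1, a zinc-finger protein of mesothelium, fell by 4.30 in XY, and Rarres2, which encodes chemerin, by 2.93. Gpm6a fell by 3.86, Muc16 by 3.30 and Nkain4 by 1.67 at the same step. Ezr, a membrane-actin linker, rose by 0.82, and Pdpn, a mucin-type membrane protein, by 0.81. Wt1, a transcription factor that supporting cells share with the coelomic epithelium, stood at -0.07 (adjusted p = 0.621, edgeR) at this step and was between 432 and 846 CPM in the group means. Markers of other tissues moved at the same step. The mesonephric duct and tubule list (Pax2, Pax8, Gata3, Ret, Cdh16, Wfdc2) went from 47.1 to 55.3 TPM down to 3.84 to 7.79 TPM in XY. There 6 of 6 genes were called lower, beside 24.8% of all genes, while XX libraries held 35.0 to 65.6 TPM throughout. Most of the XX sum was Pax8 and Gata3, with means of 32.6 and 17.1 of 58.6 TPM at E11.5 and 13.2 and 21.1 of 38.9 TPM at E15.5. Cdh16 was at 0.553 to 1.13 TPM in XX group means, against 7.61 in XY at E11.5. Of the interstitial markers, Pdgfra read 246, 209 and 244 CPM in XY at E11.5 and 12.3, 13.4 and 15.3 at E12.5, while XX libraries read 41.2 to 153 CPM over the 4 stages. Pdgfra fell by 4.09, Tcf21 by 5.41, Nr2f2 by 3.77 and Gli1 by 6.23 at that XY step, all called by edgeR. The part of these tissues in the fall of the surface genes was not tested.

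Among 28 other keratins, 7 reached 1 TPM in some group mean and 9 passed the filter. Krt20 was higher in XX at all 4 stages, by 4.503, 4.001, 4.77 and 5.32 on the log2 scale, and all 4 were called by edgeR. Its XX libraries read 12.8 to 32.3 CPM at E11.5 and 60.7 to 67.3 at E13.5, and its XY libraries never passed 2.79. Krt14, of basal epidermal cells, was at 1.14, 1.52 and 1.44 CPM in XY at E11.5 but 0, 0.0431 and 0 at E12.5, while XX stayed between 0.483 and 4.08. Krt79 went the other way at that step and rose by 2.04 in XY and 1.62 in XX. XX minus XY was called for 3, 9, 7 and 8 of the 9 keratins that passed, beside 42.0%, 62.1%, 66.1% and 69.4% of all genes.

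Desmosomes anchor keratin filaments at the cell border, and 11 of 15 desmosome and plakin genes passed the filter. Between E11.5 and E12.5 in XY, 5 rose and 3 fell, beside 27.1% and 24.8% of all genes. Desmoplakin (Dsp), which ties keratins to the desmosome, read 28.1, 18.8 and 18.8 CPM in XY at E11.5 and 135, 104.6 and 115 at E12.5. It rose by 2.43, plakoglobin (Jup) by 1.22 and plectin (Plec) by 1.80. In XX, Dsp read 36.7, 12.6 and 23.4 CPM at E11.5 and 6.16, 5.46 and 5.34 at E15.5, so that XX minus XY was -4.37 at the last stage. Dsp thus rose in the same XY step as Krt8 and Krt18. Dsc2, a desmosomal cadherin, fell by 1.19 in XY, and Evpl, which encodes envoplakin, was higher in XX at all 4 stages, by 1.82, 2.50, 1.66 and 1.17.

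The cornified-envelope genes were at their highest at E11.5, at levels like those of the keratins. In XX at E11.5 Lor had 141 ± 78.6 TPM, Sprr2d 131 ± 16.1, Krt18 102 ± 56.8, Krt8 72.1 ± 24.1 and Sprr2a2 41.8 ± 12.6 (SD, n = 3). The libraries of Lor, Sprr2d and Krt18 overlapped, and those of Krt8 lay below those of Sprr2d. By E15.5 Krt18 led with 252 ± 15.3 TPM, followed by Krt8 (154 ± 13.4) and Upk3b (152 ± 5.76), whose libraries overlapped, and Lor had 6.1 ± 0.44 TPM.

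**Figure D4:**
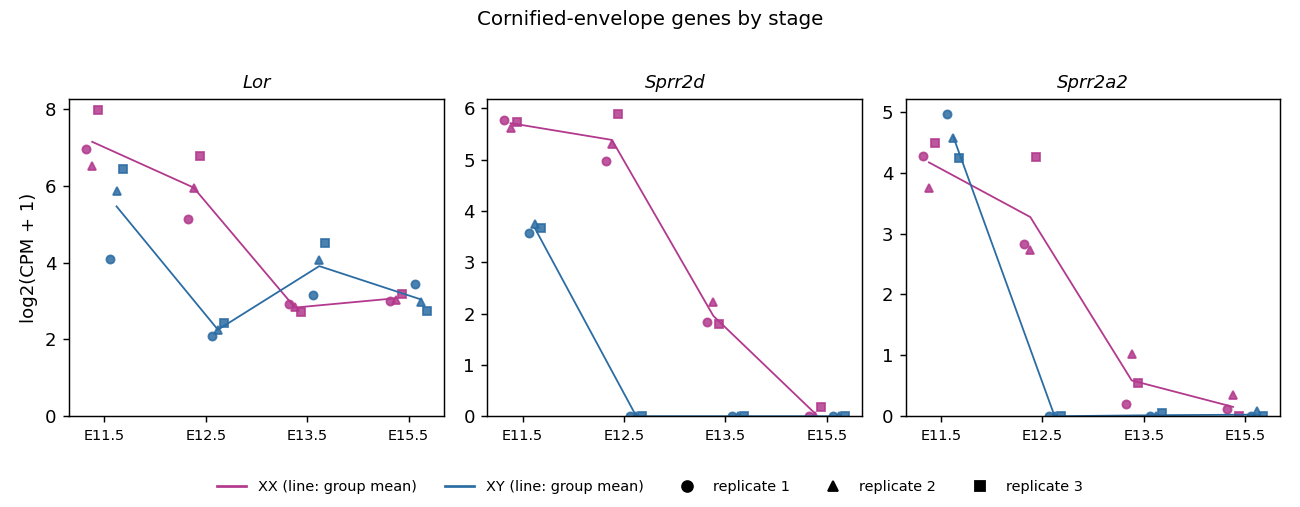
Level of Lor, Sprr2d and Sprr2a2 in each library, as log2(CPM + 1) (y axis), by embryonic stage (x axis), with XX in magenta and XY in blue. Symbols are replicates and lines join group means. XY libraries reach 0 for Sprr2d at E12.5, and XX libraries fall between E12.5 and E15.5.

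Sprr2d left the XY libraries a stage or more before the XX libraries. XX libraries held 53.8, 48.1 and 52.1 CPM at E11.5, then 30.2, 38.3 and 58.2, then 2.59, 3.65 and 2.49, and at the last stage 0, 0 and 0.134. XY libraries held 10.8, 12.4 and 11.7 CPM at E11.5 and 0 in all 9 later libraries. XX was above XY without overlap at E11.5, by 4.4-fold. From E11.5 to E12.5 the XY mean became at least 86.1-fold lower, set against a floor of 3 counts per library, while the XX mean became 1.22-fold lower with overlapping libraries. The XX mean then became 14.5-fold lower from E12.5 to E13.5. As the gene was chosen for its change with stage, these are descriptions.

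Sprr2a2 had the same timing but another balance between the sexes. XX libraries held 18.3, 12.47 and 21.4 CPM at E11.5, then 6.14, 5.64 and 18.1, then 0.148, 1.04 and 0.453, and at the last stage 0.0868, 0.266 and 0. XY libraries held 30.3, 22.8 and 17.9 CPM at E11.5, 0 in all 3 at E12.5, and at most 1 count in any later library. The sexes overlapped at E11.5. The XX E12.5 mean of 9.94 ± 7.03 CPM (SD, n = 3) was 5.89 without replicate 3. The XY mean became at least 175-fold lower from E11.5 to E12.5, and the XX mean became 18.2-fold lower from E12.5 to E13.5. That fold was 33.1 without XX E13.5 replicate 2 and 10.8 without XX E12.5 replicate 3. Of the values above 0, 53.8% for Sprr2d and 62.5% for Sprr2a2 were not whole numbers, as in estimates that divide reads among copies.

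The 12 Sprr2 genes together held 1228 to 1452 counts in XX and 1275 to 1666 in XY at E11.5. Sprr2d had 69.4%, 77.6% and 65.5% of them in XX and 23.9%, 32.5% and 35.2% in XY. Sprr2a2 had 23.6%, 20.1% and 26.9% in XX and 66.9%, 59.5% and 53.9% in XY. The leading copy thus differed between the sexes in all 6 libraries, a description since both genes were chosen. Set per length, Sprr2d had 2.6 to 4.13 times the TPM of Sprr2a2 in XX and 0.382 to 0.699 times in XY. In XX at E12.5 Sprr2d held 73.6% to 85.3% of 973 to 1799.99 family counts. All 9 XY libraries from E12.5 on had between 0 and 3 counts over the family.

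Lor did not vanish, and it came back in part in XY. XX libraries read 123, 90.1 and 249 CPM at E11.5, then 34.2, 60.4 and 108, then 6.52, 6.22 and 5.59, and at the last stage 7.03, 7.13 and 8.1. XY libraries read 16.0, 56.9 and 85.6 CPM at E11.5, then 3.22, 3.75 and 4.39, then 7.85, 15.7 and 21.8, and at the last stage 9.8, 6.79 and 5.63. XX was above XY without overlap at E11.5 and E12.5 (17.9-fold in means at E12.5), below it without overlap at E13.5 (2.48-fold), and overlapped with it at E15.5. Between E12.5 and E13.5 the XX mean became 11.1-fold lower and the XY mean 3.995-fold higher, each without overlap. The Lor E11.5 means of 154 (XX) and 52.8 CPM (XY) were 106 without XX replicate 3 and 71.3 without XY replicate 1.

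Of 56 other Sprr and cornified-envelope genes, 13 reached 1 TPM in some group mean and 13 passed the filter. From E11.5 to E12.5, 6 fell and 1 rose in XX and 8 fell and 2 rose in XY, beside 34.0% and 51.9% of all genes called. From E12.5 to E13.5, 5 fell and 1 rose in XX, beside 31.7%. Tgm3, a transglutaminase that cross-links loricrin and Sprr proteins in skin, read 91.05, 29.5 and 81.9 CPM in XX at E11.5, 4.3 to 5.18 at E13.5 and 0.868 to 1.25 at E15.5. In XY it read 63.5, 55.7 and 43.9 CPM at E11.5, then 1.68, 2.29 and 2.01, and then 0.0797 to 0.143. Tgm3 thus fell in the same order of sexes as Sprr2d, by 4.76 in XY and 1.53 in XX at the first step, both called by edgeR. Tgm5, a transglutaminase of epidermis, had 4.18, 5.26 and 9.92 CPM in XY at E11.5 and 0 in all 9 later XY libraries, and at most 1.49 CPM in XX. The 2 that rose in XY were Sbsn (suprabasin), by 2.18, and Cdsn, which encodes corneodesmosin, by 2.66. Cdsn also rose in XX, by 0.90.

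Within 3 groups, some of the genes shared their spread between replicates, though not the same genes in each group. In XX E12.5, replicate 3 had the lowest Upk3b (27.6 CPM against 99.2 and 91.1), Krt19, Lrrn4 and Krt7, and the highest Sprr2d, Sprr2a2 and Lor. The same library had the most pre-granulosa RNA of its group (979 TPM against 742 and 867) and the least Pdgfra (65.4 CPM against 122 and 102). For the 7 genes it lay, relative to the other two libraries, on the side of the XX E11.5 mean. That is only a description, as the 7 were picked as extremes of this library, and Sprr2d, Sprr2a2 and Lor for their change with stage. Msln (0.439 CPM against 0.233 and 0.136, XX E11.5 mean 0.0534) and pre-granulosa RNA (XX E11.5 mean 297 TPM) lay on the other side. For Pdgfra the XX E11.5 mean (104 CPM) was within the range of the other two libraries. The part of cell makeup or staging in this was not tested. In XX E11.5, replicate 3 had the lowest Krt7, Krt8 and Krt18, and replicate 1 the lowest Upk3b and Lrrn4. The erythroid sum was 23786.5, 5290 and 55785.6 TPM in replicates 1 to 3. Lor (123, 90.1 and 249 CPM) and Sprr2a2 (18.3, 12.47 and 21.4) had the order of that sum, and Sprr2d (53.8, 48.1 and 52.1) did not. In XX E12.5 the sum was lowest in replicate 3 (849 TPM against 1608 and 1969), where Lor was highest. The part of erythroid or immune cells in the levels of Lor and the Sprr2 genes was not tested. In XY E11.5, Upk3b, Krt19, Lrrn4, Krt7 and Lor were lowest in replicate 1 and highest in replicate 3, as was Xist at 0.272, 6.32 and 40.8 CPM. Sprr2d (10.8, 12.4 and 11.7) did not follow that order, and Sprr2a2 (30.3, 22.8 and 17.9) ran against it. The interstitial markers Nr2f2 (79.3, 104 and 133 CPM), Tcf21 and Gli1 shared the order of Xist, as did the mesonephric marker Gata3 (14.1, 20.3 and 27.6). Pdgfra (246, 209 and 244), Pax8 (30.5, 27.6 and 35.3) and Cdh16 (8.61, 7.9 and 9.81) did not share it. The part of cell makeup in this order was not tested. Sox9 was lowest in replicate 3 (1207 CPM against 1782 and 2127). With that replicate left out together with the 2 XX libraries above, the XY steps from E11.5 to E12.5 were -6.06 for Upk3b, -2.09 for Krt19 and -3.36 for Lrrn4, all still called by edgeR.

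**Figure D5:**
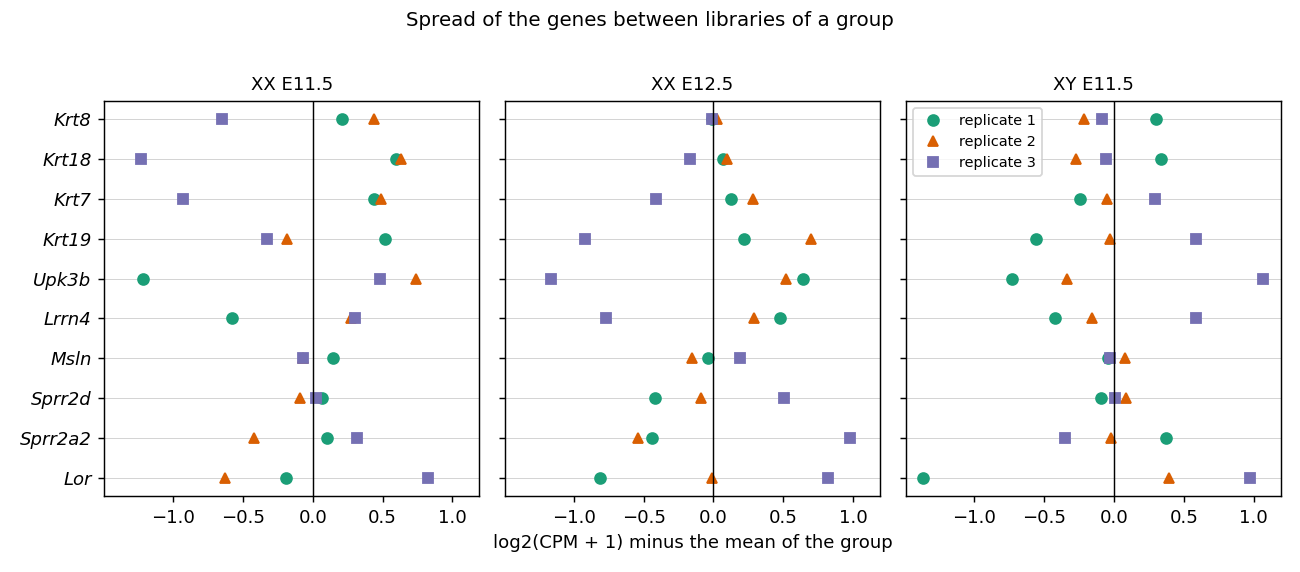
Deviation of each library from the mean of its group, in log2(CPM + 1) (x axis), for the 10 genes (rows) in the 3 groups with the library that stood apart. In XX E12.5 replicate 3 is 1.16 below the group mean for Upk3b and 0.82 above it for Lor, and in XY E11.5 it is 1.07 above for Upk3b.

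The genes most alike in pattern were found by Pearson's r of log2(CPM + 1) over the 8 group means, among 11155 genes that reached 10 CPM in some group. The points share libraries and a common sex split, so r is a description. For Krt19 they were Lbx2 (r = 0.994), Dipk1a (0.992), Oprk1 (0.991), Atl1 (0.99) and Rassf8 (0.99). Lbx2, a homeobox gene, had 12.6 CPM in XX at E11.5, 204 in XX at E15.5 and 0.512 in XY at E15.5. For Upk3b they were Rarres2 (0.998), Tspan6 (0.995), Rnft1 (0.993), Tsc22d3 (0.992) and Cnrip1 (0.992). For Lor they were Map7d1 (0.998), Ipmk (0.988), 2310022B05Rik (0.983), Strn4 (0.982) and Usp35 (0.974). Map7d1, a microtubule-associated protein, shared the return in XY, with 68.9, 17.2, 33.0 and 22.2 CPM over the 4 XY stages. For Sprr2d they were Sp3 (0.977), Hif3a (0.976), Tmem131l (0.974), Siglecg (0.973) and Gli2 (0.973). Gli2, a transcription factor of hedgehog signalling, went from 11.45 to 1.08 CPM in XX between E11.5 and E15.5. Across the same 8 means, Krt19 and Upk3b had r = 0.945 with each other, and Krt8 and Krt19 had r = -0.08.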

How the data were processed

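Estimated counts and TPM per gene for 24 libraries were deposited by the authors. The authors' tools, counting rule and use of strand are not given in the sources used here. The build mm10 is named in the submitters' processing notes, and coordinates and promoters come from RefSeq on GRCm38.p6, the same assembly. Reads of overlapping genes and of Sprr2 copies may be divided. Deposited counts were rounded and tested with edgeR 4.0.16 (TMM, filterByExpr, robust quasi-likelihood fit with 1 mean for each of 8 groups and 16 residual degrees of freedom), which left 16190 genes. SE is the absolute log2 difference over the square root of F. The test was checked on simulated data. Promoter identity was computed by global alignment with Biopython 1.88.

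The genes and lists were chosen with earlier results of these data known. From each list, genes of at least 1 TPM in some group mean could be named, and examples were taken after their values were seen. The 5 genes most alike were named for Krt19, Upk3b, Lor and Sprr2d. Alternatives were DESeq2 size factors, DESeq2 1.42.0, other filters, limma-trend on log2(TPM + 0.1) and log2(TPM + 1), a replicate block, a fit limited to the groups of a contrast, and the omission of single libraries. Leaving out 3 libraries that stand apart was added after the data were seen. The interstitial markers are given by gene, and their sum is not reported here.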

Additional observations from a re-analysis of the deposited data

Results flagged for a closer look

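For 6 of the 7 surface genes the XX minus XY difference changed with stage by edgeR's interaction test. The adjusted p was 2.09e-08 for Lrrn4, 2.4e-07 for Upk3b, 2.66e-07 for Krt19, 0.000177 for Msln, 0.010009 for Krt8 and 0.0226 for Krt18, beside 70.1% of all genes called. For Lor, every XX library was lower at E13.5 than at E12.5 and every XY library higher. The log2 change in XX minus that in XY was -5.47, and this difference was not tested because Lor was chosen for its change with stage.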

How the results depend on the processing

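The counts of calls stayed within 1.5 times the reported value under most settings. By limma on log2(TPM + 0.1) and on log2(TPM + 1), interaction calls among the 7 surface genes were 3 (against 6), and stage-step calls among the other keratins were 13 (against 20). With only the libraries compared, XX minus XY calls among other cornified-envelope genes were 17 (against 28). The cause was not tested. With log2(TPM + 1), the log2 ratio of Krt7 to Krt19 in XY moved from 3.95 to 2.84 at E12.5, from 4.84 to 3.485 at E13.5 and from 3.38 to 2.54 at E15.5, where Krt19 lies under the added value. Limma on TPM shifted the median of all genes by up to -0.22. Signs turned only among values that were not called. Krt18 XX minus XY at E12.5 (-0.03) was 0.01305 with DESeq2 and 0.01304 with its size factors, 0.0284 with at least 10 counts in 3 libraries, 0.032 with only the libraries compared, 0.0509 without the 3 libraries that stood apart, and 0.171 and 0.169 by limma. Krt18 in XX between E11.5 and E12.5 was -0.12 without those 3 libraries. By limma, Krt7 in XX from E13.5 to E15.5 was 0.0263 and 0.0259, Krt8 XX minus XY at E15.5 was -0.0105 and -0.0104, and Krt8 in XX from E12.5 to E13.5 was -0.0128 and -0.0127. Leaving out 1 library at a time, Krt18 XX minus XY at E12.5 ranged from -0.0532 to 0.0987, Krt18 in XX between E11.5 and E12.5 from -0.19 to 0.46, and Upk3b in XX between E11.5 and E12.5 from -0.0671 to 0.70. Lrrn4 in XX from E12.5 to E13.5 ranged from -0.43 to 0.0583, Krt7 in XX from E13.5 to E15.5 from -0.0979 to 0.0821, Lrrn4 XX minus XY at E11.5 from -0.56 to 0.0636, Upk3b in XY from E12.5 to E13.5 from -0.98 to 0.37, Krt8 XX minus XY at E15.5 from -0.0045 to 0.15, and Lrrn4 in XY from E13.5 to E15.5 from -0.0124 to 0.27. The replicate numbers were not used to pair the samples. Of 84 same-number pairs, 6 correlated above 0.1, with a maximum of 0.298, and 12 of 24 libraries were nearest to their own number. The mean correlation was 0.00907 for the same number and -0.00457 for different numbers. These values cannot settle whether samples of some groups were paired. With a replicate block, the surface genes had 22 XX minus XY calls (22 without), 15 stage-step calls (16 without) and 6 interaction calls (6 without). Depth limits Msln and the XY values of Krt19, Upk3b and Lrrn4 from E12.5 on, most of which rest on fewer than 30 counts.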
